A study of Mus musculus with 2 samples.

Results

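The expression of 10 genes of type 2 immunity was followed across the cells of the mouse omentum. They are the type 2 cytokine genes *Il5*, *Il13* and *Il4*, the growth factor gene *Areg*, the alarmin gene *Il33* and the gene of its receptor, *Il1rl1*, the transcription factor genes *Gata3* and *Rora*, the neuropeptide gene *Calca*, and *Arg1*, which encodes arginase 1. They were chosen by symbol from the 19960 genes listed in the files, and all 10 were found. The omentum is an apron of visceral fat whose lymphoid aggregates, the milky spots, sample peritoneal fluid. Single cells were captured in droplets and transcripts were counted by unique molecular identifiers (UMIs), in 2 libraries: WT and *Postn*-DTR, each taken on day 5 after a single low dose of diphtheria toxin (DT) into the peritoneum. *Postn*-DTR mice are heterozygotes with the DT receptor inserted into the first coding exon of *Postn*, so that DT kills cells that use the *Postn* promoter, which in this tissue marks *Aldh1a2*+ fibroblastic reticular cells. The paper reports that DT also removed part of another stromal population of the omentum, and that the cecum was enlarged in some *Postn*-DTR mice. It does not exclude systemic effects of the ablation. Both groups received DT, and each library pooled 3 mice.

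With 1 library per group there was no replicate, so no test was made and no p-value is given. Levels are means over cells of UMIs per 10000 UMIs of the cell, and a ratio is the log2 of the *Postn*-DTR mean over the WT mean after 0.02 was added to both. Intervals are exact 95% intervals on UMIs or cells. They cover counting error only, and differences between mice cannot be told apart from differences between the genotypes.

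Type 2 immunity is the response that mucosal and adipose tissues mount to helminths, allergens and tissue damage. IL-33 is released by damaged stromal cells and binds ST2, the product of *Il1rl1*, on group 2 innate lymphoid cells (ILC2s), on a tissue subset of regulatory T cells (Tregs) and on mast cells. GATA3 and RORα are needed for ILC2s to develop, IL-5 sustains eosinophils and B1 cells, IL-4 and IL-13 act on macrophages and stroma, amphiregulin serves tissue repair, and *Calca* encodes the calcitonin gene-related peptide (CGRP), which acts on ILC2s.

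After filtering, 8654 WT and 5727 *Postn*-DTR cells were kept, with medians of 5635 and 8472 UMIs. Cells were clustered with the 10 genes left out, and classes were named from other markers. The 2 libraries shared 65 cell barcodes, of which 3 WT and 4 *Postn*-DTR cells were ILC2-like, and the ILC2-like *Calca* means without these cells were 2.31 and 18.1. Plasma-like cells made up 573 of the WT and 2050 of the *Postn*-DTR cells, and neutrophil-like cells 242 and 744. These classes weigh on every share of leukocytes below.

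The ILC2-like class held 185 WT and 171 *Postn*-DTR cells. Of the 11 ILC2 markers, 7 were found in at least 10% of its cells at 2-fold or more above the mean of all other cells. *Hs3st1* gave a UMI in 57.8% and 71.3% of the cells, *Ramp1* in 71.9% and 51.5%, and *Klrg1* in 58.9% and 31.6%. *Il17rb* gave one in 22.7% and 16.4%. *Ptgdr2*, the CRTH2 receptor often used to define ILC2s, had no UMI in either library. A UMI of *Cd3d*, *Cd3e* or *Cd3g* occurred in 24.3% and 23.4% of the cells, whereas *Trbc2*, a T cell receptor constant gene, was found in 55.1% and 31.6%. The part of these T cell transcripts in the ratios below was not tested, beyond leaving out the cells with a *Cd3* UMI. Among leukocytes, 2.15% (1.86 to 2.48%) were ILC2-like in WT, and 3.0% (2.57 to 3.48%) in *Postn*-DTR. When plasma-like (cycling ones included) and neutrophil-like cells were taken out of the denominator, the shares were 2.39% and 6.26%. A larger share cannot be told apart from a loss of other cells.

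The 3 cytokine genes lie in a single cluster on chromosome 11 (GRCm38, 1-based). *Il4* occupies 53602982 to 53618669 and *Il13* 53631324 to 53634702, both on the minus strand, and *Il5* occupies 53720794 to 53725106 on the plus strand. *Il4* ends 12655 bases before *Il13*, and *Il13* ends 86092 bases before *Il5*, with *Rad50* between them. The other members are on separate chromosomes. *Areg* lies at 91139599 to 91148432 on chromosome 5 (plus strand) and *Calca* at 114631478 to 114636357 on chromosome 7 (minus strand). The 250 bases before the RefSeq start (GRCm38.p6) of 4 genes are shown in the direction of transcription, because these genes carried most of the signal of the ILC2-like cells or share the locus. In *Calca* (chr7:114636358-114636607, minus strand) the capitals mark matches to AGATAA, the letters of a GATA motif, and to AGGTCA, the letters of a nuclear receptor element bound by RORα, both on the reverse strand. In *Areg* (chr5:91139349-91139598, plus strand) they mark the cyclic AMP response element TGACGTCA and the TATA box letters TATAAA. In *Il13* (chr11:53634703-53634952, minus strand) they mark AGATAA and TATAAA, the latter found on both strands in overlapping letters, and in *Il5* (chr11:53720544-53720793, plus strand) they mark AGATAG on the reverse strand.
Calca: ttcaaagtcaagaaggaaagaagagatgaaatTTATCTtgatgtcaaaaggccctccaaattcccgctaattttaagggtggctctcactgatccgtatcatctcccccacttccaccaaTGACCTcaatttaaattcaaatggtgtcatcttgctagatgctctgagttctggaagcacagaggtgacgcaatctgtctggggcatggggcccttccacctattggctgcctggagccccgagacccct
Areg: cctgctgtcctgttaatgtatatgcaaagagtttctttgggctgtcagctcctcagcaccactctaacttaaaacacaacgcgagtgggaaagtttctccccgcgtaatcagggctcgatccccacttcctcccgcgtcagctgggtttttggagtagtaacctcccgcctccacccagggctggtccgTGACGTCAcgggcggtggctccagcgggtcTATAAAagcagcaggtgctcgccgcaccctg
Il13: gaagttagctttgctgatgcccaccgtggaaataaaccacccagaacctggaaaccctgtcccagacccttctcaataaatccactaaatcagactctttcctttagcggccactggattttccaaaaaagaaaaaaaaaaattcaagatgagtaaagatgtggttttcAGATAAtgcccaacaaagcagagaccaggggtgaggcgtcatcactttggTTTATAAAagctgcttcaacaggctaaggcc
Il5: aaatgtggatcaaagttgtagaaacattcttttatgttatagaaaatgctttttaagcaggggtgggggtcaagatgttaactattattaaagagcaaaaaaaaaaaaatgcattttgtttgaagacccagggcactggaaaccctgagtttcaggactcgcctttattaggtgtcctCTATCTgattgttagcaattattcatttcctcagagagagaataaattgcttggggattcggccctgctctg
Both strands were searched. TGACGTCA stood 61 to 54 bases before the *Areg* start, at -61 to -54, and was found in 1.55% of the 32851 promoter windows of the same length. AGATAA was found in 9.99% of the windows, AGATAG in 7.71%, AGGTCA in 14% and TATAAA in 12.4%, so these shorter matches are common letters. *Gata3* had no match to any of the 8 letter strings searched. A match describes the letters of the window and nothing about binding.

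*Areg*, *Gata3* and *Calca* had their highest levels in ILC2-like cells, whereas *Il1rl1*, *Arg1*, *Rora*, *Il4* and *Il33* were led, in 1 or both libraries, by other classes. Over all cells, the WT and *Postn*-DTR libraries held 6018 and 2918 UMIs of *Areg*, 2824 and 1105 of *Rora*, 2544 and 740 of *Gata3*, 749 and 1840 of *Arg1*, 695 and 368 of *Il1rl1*, and 276 and 1087 of *Calca*. The cytokine genes and the alarmin gene were rare, with 126 and 52 UMIs of *Il4*, 75 and 77 of *Il5*, 46 and 58 of *Il13*, and 67 and 30 of *Il33*. ILC2-like cells held 73.2% of the WT and 94.9% of the *Postn*-DTR UMIs of *Calca*, and 54.7% and 98.7% of those of *Il5*. For *Rora* they held 11.2% and 33.4%.

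**Figure D1:**
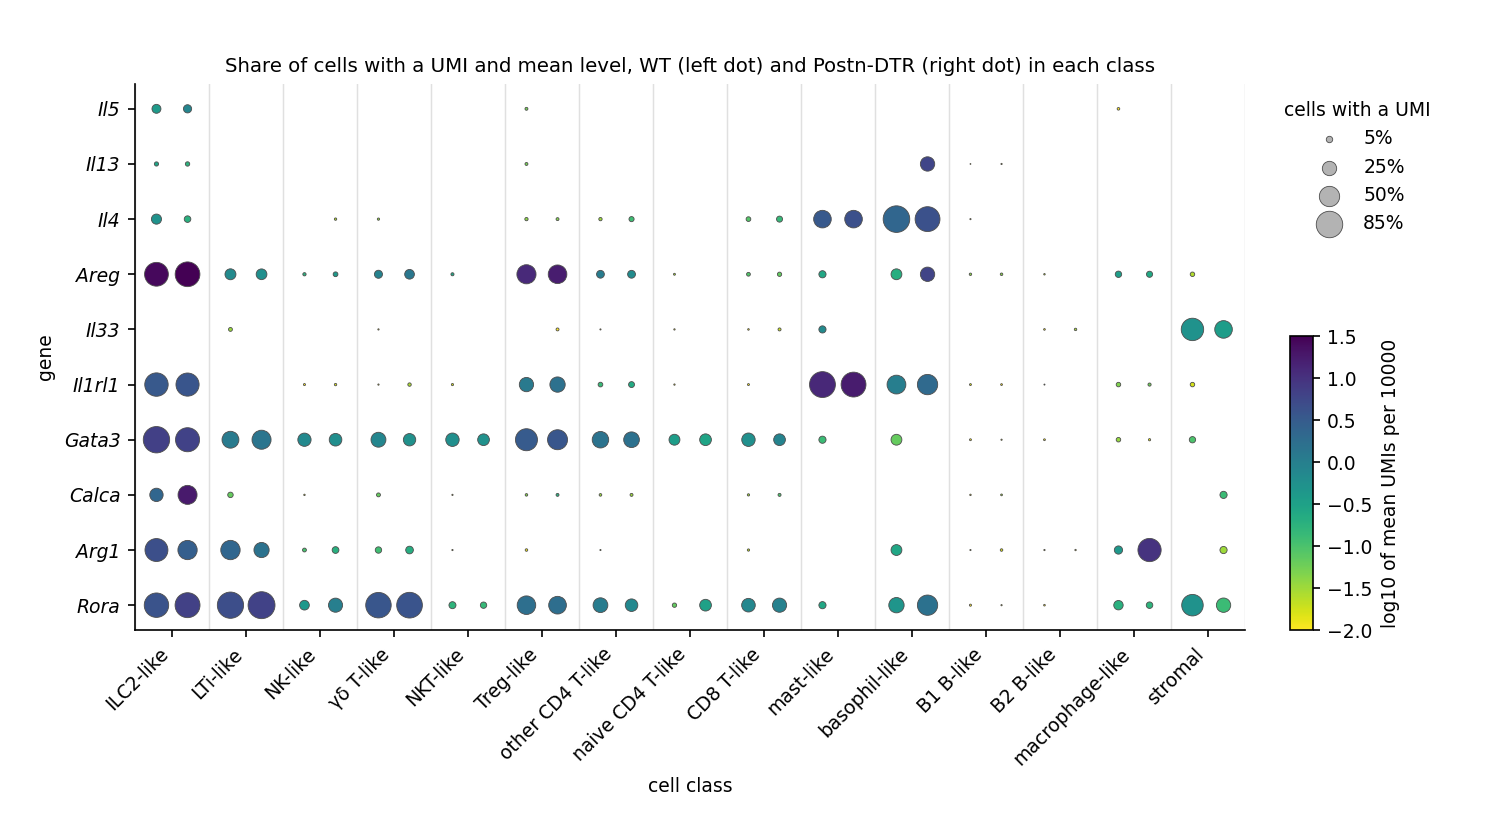
Share of cells with a UMI (dot area) and mean UMIs per 10000 (colour, log10 scale) of the 10 genes in 15 cell classes, with the WT library as the left and the *Postn*-DTR library as the right dot of each class. No dot is drawn where no UMI was found; the mast-like and basophil-like classes hold 16 and 8, and 7 and 4 cells.

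In ILC2-like cells 9 of the 10 genes had at least 20 UMIs over both libraries and a ratio was read, and *Il33* had 0 UMIs in 185 WT and 171 *Postn*-DTR cells, which allows a share of up to 1.62% and 1.75% of cells with a UMI. *Calca* was past 2-fold higher and *Il4* past 2-fold lower in the *Postn*-DTR library. Among the 6518 genes with a ratio in these cells, 4.08% were past 2-fold higher and 4.59% past 2-fold lower, so 1 gene of 9 in each direction is a small count to set against that background.

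*Calca* had the largest difference of the 9. Its mean was 2.27 UMIs per 10000 in WT, from 202 UMIs in 40 of 185 cells, and 18.2 in *Postn*-DTR, from 1032 UMIs in 75 of 171 cells. The median cell had 0 in both libraries, and the highest cell had 31.2 per 10000 in WT and 204 in *Postn*-DTR. Both the share of cells and the level within them were higher in the *Postn*-DTR library, while most cells of both libraries overlapped at 0. The ratio was 2.99 on the log2 scale, and 2.77 (2.56 to 3.0) from summed UMIs, and 9 of the 6518 genes had a higher ratio. Among the first 6 of these were the immunoglobulin segments *Igkv12-98* (6.42), *Igkv6-20* (5.08) and *Igkv15-103* (3.79), named after their values were seen, so plasma cell transcripts moved with the contrast, and their part in the *Calca* ratio was not tested. Cells with a UMI were 21.6% and 43.9%, and 21.2% and 38.8% after each cell was thinned to 2000 UMIs, which left out 6 WT and 19 *Postn*-DTR cells. Among cells with a UMI, the median level was 8.09 and 20.7 per 10000. Cells with 10 or more UMIs numbered 5 in WT and 27 in *Postn*-DTR, and the top cell held 11.4% and 8.72% of the class's UMIs, so no single cell carried the difference. B2 B-like cells, which should lack the gene, had 0 UMIs of *Calca* in 1462 and 414 cells, which allows up to 0.205% and 0.725%.

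*Il4*, which drives B cell class switching and alternative macrophage activation, had 0.526 UMIs per 10000 in WT ILC2-like cells (34 UMIs in 23 cells) and 0.188 in *Postn*-DTR (12 UMIs in 9 cells). The highest WT cell held 6 UMIs and the highest *Postn*-DTR cell 3, so the WT library held both more positive cells and the highest one. The ratio was -1.40, or -1.08 (-2.17 to -0.10) from summed UMIs. After thinning, 8.38% and 3.29% of cells had a UMI at 2000 UMIs, and 3.26% and 2.35% at 1000. Without cells with a *Cd3* UMI the ratio was -1.46. The counts are small, and the upper bound of the interval lies close to no difference.

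*Il5*, the eosinophil and B1 cell growth factor, had 0.404 UMIs per 10000 in WT (41 UMIs in 18 cells) and 0.809 in *Postn*-DTR (76 UMIs in 14 cells). A single *Postn*-DTR cell held 38 of the 76 UMIs, and the next highest held 9, while the highest WT cell held 12. The share of cells with a UMI was 9.73% and 8.19%, and after thinning to 2000 UMIs 5.59% and 7.89%. The ratio of means was 0.97, and 1.31 (0.75 to 1.9) from summed UMIs, and without the top cell of each library these were 0.59 and 0.82. The difference in the mean thus rested in large part on 1 cell.

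*Il13*, which acts on epithelium, stroma and macrophages, was found in 4 cells of each library. The WT cells held 23, 2, 2 and 1 UMIs, and the *Postn*-DTR cells 19, 3, 2 and 1. The ratio of means was -0.63 and that of summed UMIs 0.26 (-0.58 to 1.09), so its direction depended on the scale and no difference was detectable at this depth. Of the 8 cells with *Il13*, 6 also had a UMI of *Il4*, against 26 of the other 348 ILC2-like cells. *Il5* and *Il13* were found together in 4 of the 32 cells with *Il5* unthinned, and after thinning to 2000 UMIs 2 of 22 cells with *Il5* and 2 of 309 without it had *Il13*.

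*Areg*, an EGF receptor ligand, lay close between the libraries. Its WT mean was 26.7 per 10000 (2101 UMIs, 68.6% of cells) and its *Postn*-DTR mean 34.1 (1861 UMIs, 74.3%), with medians of 10.0 and 14.8 and highest cells of 290 and 307. The ratio was 0.35, and 0.25 (0.16 to 0.34) from summed UMIs. *Il1rl1*, the ST2 gene, gave 3.47 and 3.72 per 10000, with a UMI in 66.5% and 64.9% of cells and a ratio of 0.10 (0.15 from summed UMIs, -0.12 to 0.41). *Gata3* gave 6.95 and 6.38 with a ratio of -0.12. Its share of cells with a UMI was 84.3% and 70.2%, but 64.8% and 62.5% after thinning. Neither *Il1rl1* nor *Gata3* differed beyond counting error between the libraries.

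*Rora* and *Arg1* differed in opposite directions, each by less than 2-fold. *Rora* was 4.06 per 10000 in WT (from 315 UMIs) and 6.59 in *Postn*-DTR (from 369 UMIs), with medians of 3.32 and 4.66 and a ratio of 0.70 (0.65 from summed UMIs, 0.43 to 0.87). *Arg1*, whose product splits arginine into ornithine and urea and is constitutively made by ILC2s, was 4.54 per 10000 in WT (from 358 UMIs) and 2.81 in *Postn*-DTR (from 172 UMIs), with medians of 2.91 and 0. A UMI of *Arg1* occurred in 63.8% and 45% of the cells. The ratio was -0.69 and its summed-UMI interval ran from -0.91 to -0.37.

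**Figure D2:**
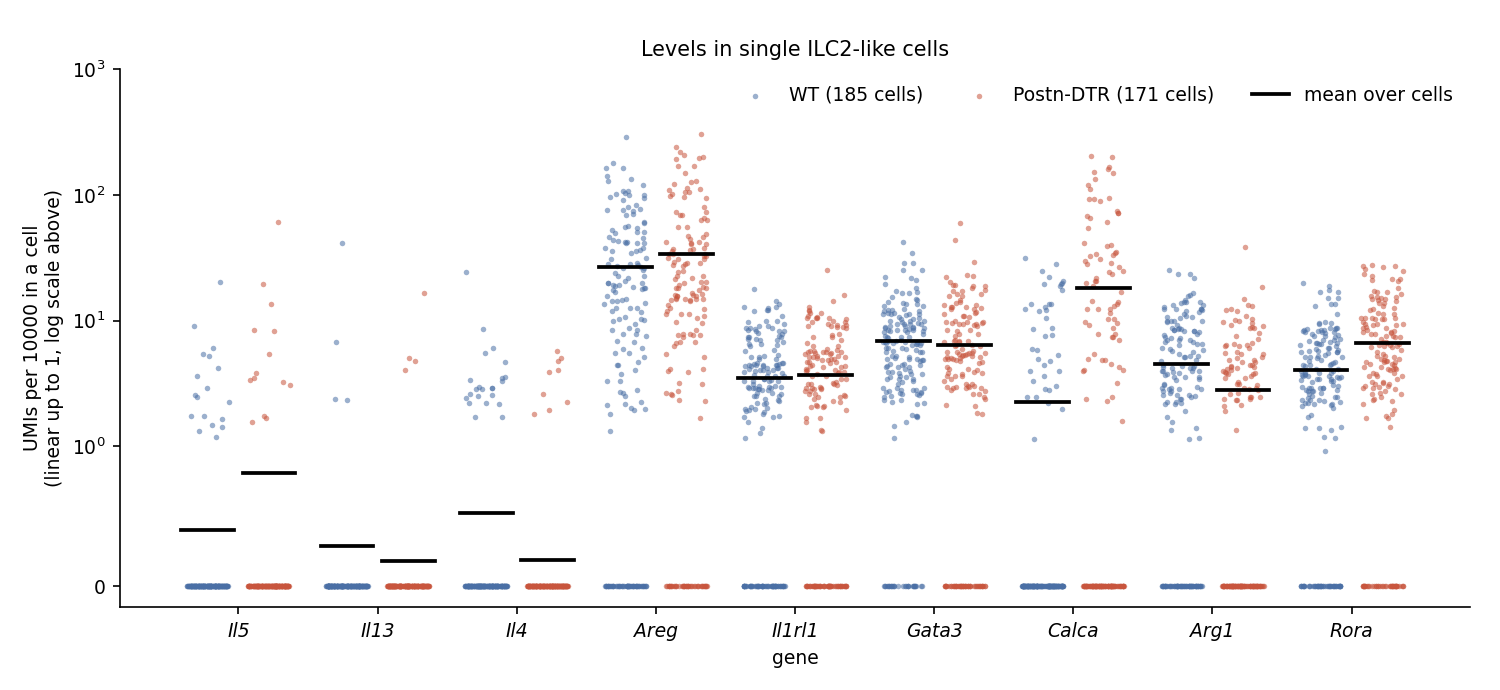
UMIs per 10000 of 9 genes in each of the 185 WT and 171 *Postn*-DTR ILC2-like cells, on an axis that is linear up to 1 and logarithmic above; black bars are means over cells. The *Calca* cells above 100 per 10000 are all from the *Postn*-DTR library, and *Il5*, *Il13* and *Il4* are at 0 in most cells of both.

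The other members were compared between ILC2-like cells with and without *Calca*. After thinning, *Rora* had a UMI in 72 of 97 cells with *Calca* (74.2%) and in 125 of 234 without (53.4%), and the shares were alike within each library, at 73.7% against 52.5% in WT and 74.6% against 54.8% in *Postn*-DTR. *Areg* had one in 76.3% and 63.2%. *Arg1* went in opposite directions, with 60.5% of cells with *Calca* and 45.4% of cells without it in WT, and 25.4% against 43.0% in *Postn*-DTR. These shares depended on depth: at 1000 UMIs *Rora* was found in 22.2% of WT cells with *Calca* and 25.5% of those without, against 61.0% and 32.4% in *Postn*-DTR, and *Arg1* in 29.6% and 28.7% of the WT cells.

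The receptor side of the CGRP system was measured in the same cells. CGRP binds a receptor made of CALCRL and RAMP1, and CALCRL with RAMP3 forms an adrenomedullin receptor. *Ramp3* was 1.32 per 10000 in WT (from 97 UMIs, 24.3% of cells) and 6.51 in *Postn*-DTR (from 344 UMIs, 57.3%), a ratio of 2.29 (2.25 from summed UMIs, 1.92 to 2.59). *Ramp1* was 3.63 and 2.54, a ratio of -0.51, and *Calcrl* had 14 and 9 UMIs. *Ramp3* was also higher in *Postn*-DTR LTi-like cells, at 0.523 and 2.71 per 10000 (12 and 54 UMIs), and in Treg-like cells the ratio was 0.96.

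Genes of the pathway were read from fixed lists, which also hold the members *Il33*, *Il1rl1*, *Gata3*, *Rora* and *Arg1*. Over all 6518 genes with a ratio in ILC2-like cells, 4.08% were past 2-fold higher and 4.59% past 2-fold lower. Of the 15 genes of the alarmin and IL-33 receptor list with a ratio in these cells, 0 were past 2-fold. Their median ratio of 0.10, which is that of *Il1rl1* itself, compares with -0.04 over all genes with a ratio. Among them *Il7r*, the IL-7 receptor, was 8.33 and 11.4 per 10000, *Nfkb1*, the p105 subunit of NF-κB, 6.15 and 11.2 (0.86), and *Il17rb*, the IL-25 receptor, 0.746 and 0.680. Of 7 other ILC2 cytokine genes, 3 were past 2-fold lower and 0 past 2-fold higher, against the 4.59% and 4.08% of all genes. Their median was -0.86. With 7 genes this is a small count to set against that background. The 3 lower ones were *Ccl1*, the CCR8 ligand, at 1.64 and 0.328 per 10000 (-2.25), *Ccl5* (-1.23) and *Lif* (-1.18). *Csf2*, which encodes GM-CSF, was 4.61 and 2.52 (-0.86). *Ccl1*, *Klrg1*, *Nmur1* and *Ramp1* are also among the markers by which the class was named.

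Of 17 transcription factor genes 1 was past 2-fold higher, *Nfil3* (1.04), and 2 past 2-fold lower, *Bcl11b* (-1.1) and *Stat5b* (-1.22). These 17 include *Gata3* and *Rora*, and their median of -0.12 is the ratio of *Gata3* itself. For this list and the next ones, the shares over all genes with a ratio were again 4.08% higher and 4.59% lower. Of 13 surface and neuropeptide receptor genes *Tnfrsf18*, which encodes GITR, was past 2-fold higher at 5.31 and 11.6 per 10000 (1.12), and *Nmur1*, the neuromedin U receptor (-1.55), *Klrg1* (-1.05) and *Thy1* (-1.01) were past 2-fold lower. The median of that list was 0.41. Among 6 receptor genes *Ramp3* and *Il4ra*, the shared IL-4 and IL-13 receptor chain (1.07), were past 2-fold higher. *Socs1* (1.04) was the only 1 of 3 measured IL-4 and IL-13 target genes past 2-fold, and *Ass1*, which makes argininosuccinate, was the only 1 of 4 arginine genes, at 0.292 and 1.46 per 10000 (2.24). None of the eosinophil genes reached 20 UMIs.

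Treg-like cells were the other main source of *Areg* and *Il1rl1*. There were 383 in WT and 95 in *Postn*-DTR, or 4.46% and 1.67% of leukocytes. *Foxp3* had a UMI in 43.3% and 49.5% of them and *Ctla4* in 78.6% and 88.4%. Of 5 members with a ratio, 1 was past 2-fold higher and 0 past 2-fold lower, against 3.45% and 5.95% of the 8346 genes tested. That member was *Calca*, where a single *Postn*-DTR cell held all 16 UMIs and 3 WT cells held 7, and without the top cell of each library its ratio turned from 1.73 to -1.15. It is read as 1 cell and not as a difference of the class.

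*Areg* in Treg-like cells was 12.7 per 10000 in WT (from 2161 UMIs) and 16.6 in *Postn*-DTR (from 579 UMIs), with a UMI in 44.4% and 42.1% of cells, medians of 0, and highest cells of 161 and 130. The ratio was 0.39, and 0.46 (0.32 to 0.59) from summed UMIs. *Il1rl1* was 1.19 and 1.61 per 10000, with a UMI in 24.8% and 28.4% and a ratio of 0.43. *Gata3*, which a tissue subset of Tregs uses together with ST2, was 3.21 and 3.66, and *Rora* 1.70 and 1.79. In each library the *Areg*, *Gata3* and *Il1rl1* levels of Treg-like cells lay below those of ILC2-like cells, and the counting intervals did not overlap. *Il5* had 15 UMIs and *Il13* 10 UMIs, each in 4 WT Treg-like cells, and both had 0 in the 95 *Postn*-DTR cells, which allows a share of up to 3.16%. A difference was not detectable at this depth.

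**Figure D3:**
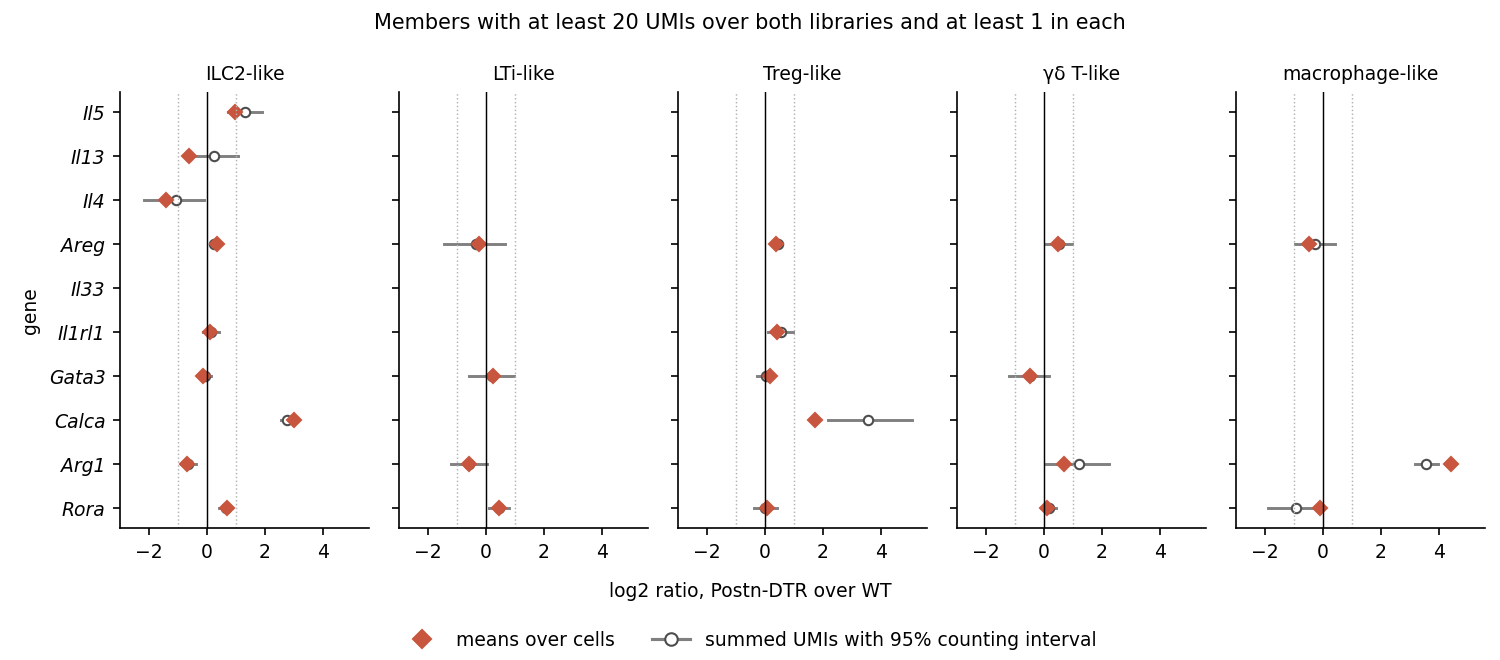
Log2 ratio of *Postn*-DTR over WT for members with at least 20 UMIs over both libraries, in 5 classes: red diamonds are ratios of means over cells, open circles are ratios of summed UMIs with 95% counting intervals, and dotted lines mark 2-fold. *Calca* lies past 2-fold in ILC2-like cells and *Arg1* in macrophage-like cells; the Treg-like *Calca* point rests on 1 *Postn*-DTR cell.

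The other T cells held less *Areg* and *Il1rl1* than Treg-like cells. Other CD4 T-like cells (597 WT and 94 *Postn*-DTR) were not free of Tregs, with a UMI of *Foxp3* in 13.1% and 18.1% and of *Ctla4* in 54.4% and 71.3%. In these cells *Gata3* was 1.48 and 1.6 per 10000, *Areg* 1.11 and 0.674 and *Rora* 1.1 and 0.742. Of 5 members with a ratio 0 were past 2-fold higher and 1 past 2-fold lower, against 4.61% and 7.51% of 8619 genes. That member was *Arg1*, with 22 UMIs in 1 WT cell and 0 in *Postn*-DTR, and against 3 counts over the group its log2 ratio was only bounded at -0.06. In γδ T-like cells (483 and 70), *Rora*, which IL-17-producing T cells use, was 3.69 and 3.94 per 10000, with a UMI in 78.7% and 80.0% of cells. None of the 4 members with a ratio was past 2-fold in either direction, against 3.22% higher and 9.33% lower of 8862 genes.

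In NKT-like cells (518 and 102) *Gata3* was 0.590 and 0.547 per 10000. *Areg* had 48 UMIs in 6 WT cells and 0 in *Postn*-DTR, and it was the only 1 of 3 members past 2-fold lower, where 4.48% of 8554 genes were lower and 2.9% higher. The top WT cells held 18, 15 and 8 of the UMIs. A share of 1.16% of WT cells lies under the 2.94% that 0 of 102 *Postn*-DTR cells allows, so a difference was not detectable at this depth. CD8 T-like cells (636 and 90) held *Il4* at 0.0856 and 0.144 per 10000 (24 and 6 UMIs). The ratio was 0.63, with a summed-UMI interval of -0.72 to 2.19. *Il4* was also found in a T cell cluster of the finer resolution, led by *Zfp683* and *Trbv1* (186 and 34 cells, which cut across the classes). It was 0.362 per 10000 in WT (from 28 UMIs, 10.8% of cells) and 0.532 in *Postn*-DTR (from 10 UMIs, 14.7%). This cluster is named because *Il4* was itself among its top genes. Naive CD4 T-like cells (436 and 24) had 0 UMIs of *Il4*.

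LTi-like cells (55 and 50), innate cells that help to form lymphoid tissue, shared *Rora* and *Arg1* with ILC2-like cells. *Ccr6*, a chemokine receptor of these cells, had a UMI in 70.9% and 76% of them. *Rora* was 4.73 and 6.46 per 10000, a ratio of 0.45 (0.10 to 0.81 from summed UMIs). *Arg1* was 2.30 and 1.54, with a UMI in 45.5% and 28% of cells and a ratio of -0.57 whose interval of -1.21 to 0.04 reached no difference. In both libraries the *Rora* intervals of LTi-like and ILC2-like cells overlapped. *Calca* had 2 WT and 0 *Postn*-DTR UMIs, far below its level in ILC2-like cells, and *Il1rl1* had none.

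Mast-like cells numbered 16 in WT and 8 in *Postn*-DTR, and *Cpa3* was found in all of them. They had the highest *Il1rl1* level of any class, at 12.9 per 10000 in WT (28 UMIs in 13 of 16 cells) and 17.3 in *Postn*-DTR (22 UMIs in 6 of 8 cells). *Il4* had 7 UMIs in 6 WT cells and 5 UMIs in 3 *Postn*-DTR cells. *Il13*, *Il5*, *Calca* and *Arg1* had 0 in both libraries. Basophil-like cells (7 and 4) were gated by *Mcpt8*, which was found in all of them, and all of them also passed the mast cell gate. *Il4* was found in 6 of 7 WT cells (21 UMIs) and 3 of 4 *Postn*-DTR cells (10 UMIs). A single *Postn*-DTR basophil-like cell held 23 of the 58 *Il13* UMIs of its library, with 24 of *Areg* and 2 of *Il4*. With so few cells no ratio between the libraries was read for either class.

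B1 B-like cells (1124 WT and 510 *Postn*-DTR), which are targets of IL-5 rather than sources of type 2 cytokines, had UMIs of the members in fewer than 1% of cells. *Areg* had 63 UMIs in 8 WT cells and 33 in 4 *Postn*-DTR cells, or 0.0404 and 0.0425 per 10000, and a single cell held 43 and 23 of them. Its share of cells with a UMI, 0.712% and 0.784%, compares with 0.274% and 0 in B2 B-like cells. These shares were not thinned and the depths were unlike. Median UMIs were 8406.5 and 6460 in B1 B-like cells and 4392 and 3190.5 in B2 B-like cells. *Il5* and *Il33* had 0 UMIs in B1 B-like cells of both libraries, and *Il4* had 3 in WT and 0 in *Postn*-DTR.

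*Il33* was found in stromal cells. Few of these were captured, 58 in WT and 25 in *Postn*-DTR, of which 17 and 9 formed a cluster led by *Tagln* and *Acta2*, genes of smooth muscle and pericytes, and the other 41 and 16 carried fibroblast and mesothelial genes together. *Dcn* was found in all of the latter, *Wt1* in 87.8% and 81.3% and *Upk3b* in 78.0% and 81.3%, so they are called stromal here and not by a narrower name. In these 41 and 16 cells *Il33* had 48 UMIs in 25 WT cells (61.0%, 44.5 to 75.8%) and 15 UMIs in 6 *Postn*-DTR cells (37.5%, 15.2 to 64.6%). The means were 0.513 and 0.367 per 10000, the ratio was -0.46 with a summed-UMI interval of -1.30 to 0.50, and the median gene of these cells was at -0.39. A difference was not detectable at this depth.

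The stromal cells held 71.6% of the WT and 50% of the *Postn*-DTR UMIs of *Il33*, and the *Tagln* and *Acta2* cluster held none. *Wt1*, a mesothelial and mesenchymal transcription factor, was found in 23 of the 25 WT cells with *Il33* and in 6 of 6 *Postn*-DTR cells. *Postn*, the gene that carries the DT receptor, was found in 10 of 41 WT cells (51 UMIs, 0.678 per 10000) and in 4 of 16 *Postn*-DTR cells (9 UMIs, 0.192), and in 7 of the 25 and 2 of the 6 cells with *Il33*. WT cells with *Il33* had a median of 24483 UMIs (8396 to 47175) and those without 19096. The part of depth in the split between them was not tested. *Rora*, a regulator of lipid and circadian genes outside lymphocytes, was 0.543 and 0.130 per 10000 in these cells (48 and 4 UMIs, ratio -1.91, -4.20 to -0.81 from summed UMIs). *Tslp*, another alarmin, had 2 WT and 0 *Postn*-DTR UMIs.

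**Figure D4:**
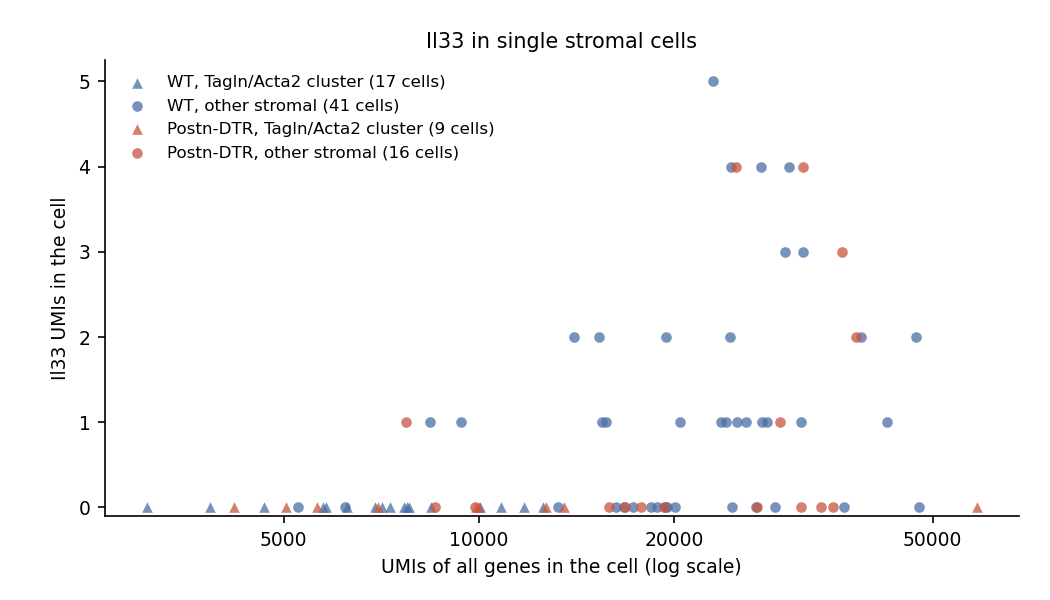
*Il33* UMIs in each stromal cell against the UMIs of all genes in that cell (log scale), for 58 WT and 25 *Postn*-DTR cells; triangles are cells of the cluster led by *Tagln* and *Acta2*. No triangle lies above 0, and the highest cells have 5 UMIs in WT and 4 in *Postn*-DTR.

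The main source of *Arg1* differed between the libraries. In WT, 47.8% of its UMIs lay in ILC2-like cells and 7.34% in macrophage-like cells, and in *Postn*-DTR the shares were 9.35% and 82.1%. Cycling T-like cells held 133 WT and 24 *Postn*-DTR UMIs and LTi-like cells 64 and 35, so both held more WT UMIs than macrophage-like cells. Macrophage-like cells, a comparison added after the data were seen, numbered 121 and 329. Their *Arg1* level was 0.429 per 10000 in WT (55 UMIs in 10 cells, 8.26%) and 9.57 in *Postn*-DTR (1511 UMIs in 215 cells, 65.3%), with medians of 0 and 4.96 and highest cells of 13.6 and 113. More than 9 in 10 WT cells were at 0, while the median *Postn*-DTR cell was not. The ratio was 4.42, or 3.58 (3.19 to 3.99) from summed UMIs, and 18 of 7694 genes had a higher one. The first 6 of these genes included the immunoglobulin segments *Ighv1-75*, *Igkv4-72*, *Igkv10-95* and *Igkv5-39* (6.49 to 8.23), which plasma cells transcribe and which were named after their values were seen. A *Ptprc* UMI occurred in 71.9% of WT and 45% of *Postn*-DTR macrophage-like cells, and the median number of genes was 1847 and 1378. The part of these differences in the *Arg1* ratio was not tested. After thinning the shares with a UMI were 3.81% and 60.9%. It was the 1 member of 3 past 2-fold higher and 0 were lower, against 6.95% higher and 8.33% lower of all genes tested.

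At a finer resolution these cells formed 2 clusters, which also took in cells placed in other classes at the coarser one. In the cluster led by *C1qa* and *Lyve1* (161 and 207 cells) *Arg1* had 1 WT UMI against 524 *Postn*-DTR UMIs, where 42.5% of cells had one, a summed-UMI log2 ratio of 9.92 with an interval of 7.43 to 15.2. In the cluster led by *Alox15* and *Prg4* (19 and 143 cells) it was 2.73 and 10.0 per 10000, with a UMI in 52.6% and 90.9% of cells and a ratio of 1.87. *Arg1* was thus higher in the *Postn*-DTR library within each cluster. The cells also differed in depth and in *Ptprc* within each. In the cluster led by *C1qa* and *Lyve1* the median was 5746 and 2350 UMIs, with a *Ptprc* UMI in 75.8% and 38.2% of cells. In that led by *Alox15* and *Prg4* it was 10313 and 7458 UMIs, with 94.7% and 56.6%. The part of these differences in the *Arg1* ratios was not tested. The cluster with the higher WT level was the smaller one in both libraries, with 19 WT and 143 *Postn*-DTR cells. *Nos2*, the enzyme that competes for arginine, had 0 UMIs in both clusters.

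Other IL-4 and IL-13 target genes did not move as 1 set in macrophage-like cells. Of 8 with a ratio, 3 were past 2-fold higher and 2 past 2-fold lower, against 6.95% higher and 8.33% lower of all genes tested. Their median was 0.15 against -0.14 over all genes tested. *Chil3*, which encodes Ym1, had 1 WT UMI and 2650 *Postn*-DTR UMIs, *Alox15*, the 12/15-lipoxygenase, was 3.40 and 11.9 per 10000 (1.81), and the lectin gene *Clec10a* 1.20 and 3.54 (1.54). *Retnla*, which encodes RELMα, was 130 and 6.32 per 10000 (-4.36), and the lectin gene *Mgl2* 1.16 and 0.0541 (-4.00). *Il4ra* was 0.243 and 0.545 (1.1). The differences in *Retnla* and *Chil3* had the same direction within each finer cluster. *Retnla* was 97.7 and 11.5 per 10000 in the cluster led by *C1qa* and *Lyve1* and 3.06 and 0.953 in that led by *Alox15* and *Prg4*. *Chil3* was 0.025 and 1.43 in the former and 0.0596 and 18.8 in the latter. *Alox15* is itself a leading gene of the latter, which held 19 WT and 143 *Postn*-DTR cells. The part of this shift in cell numbers in the *Alox15*, *Clec10a* and *Mgl2* ratios was not tested. *Chil3* was also a top gene of a cluster led by *Elane* and *Mpo*, with 178 WT and 288 *Postn*-DTR cells. The part of transcripts from those cells in the *Chil3* counts was not tested.

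**Figure D5:**
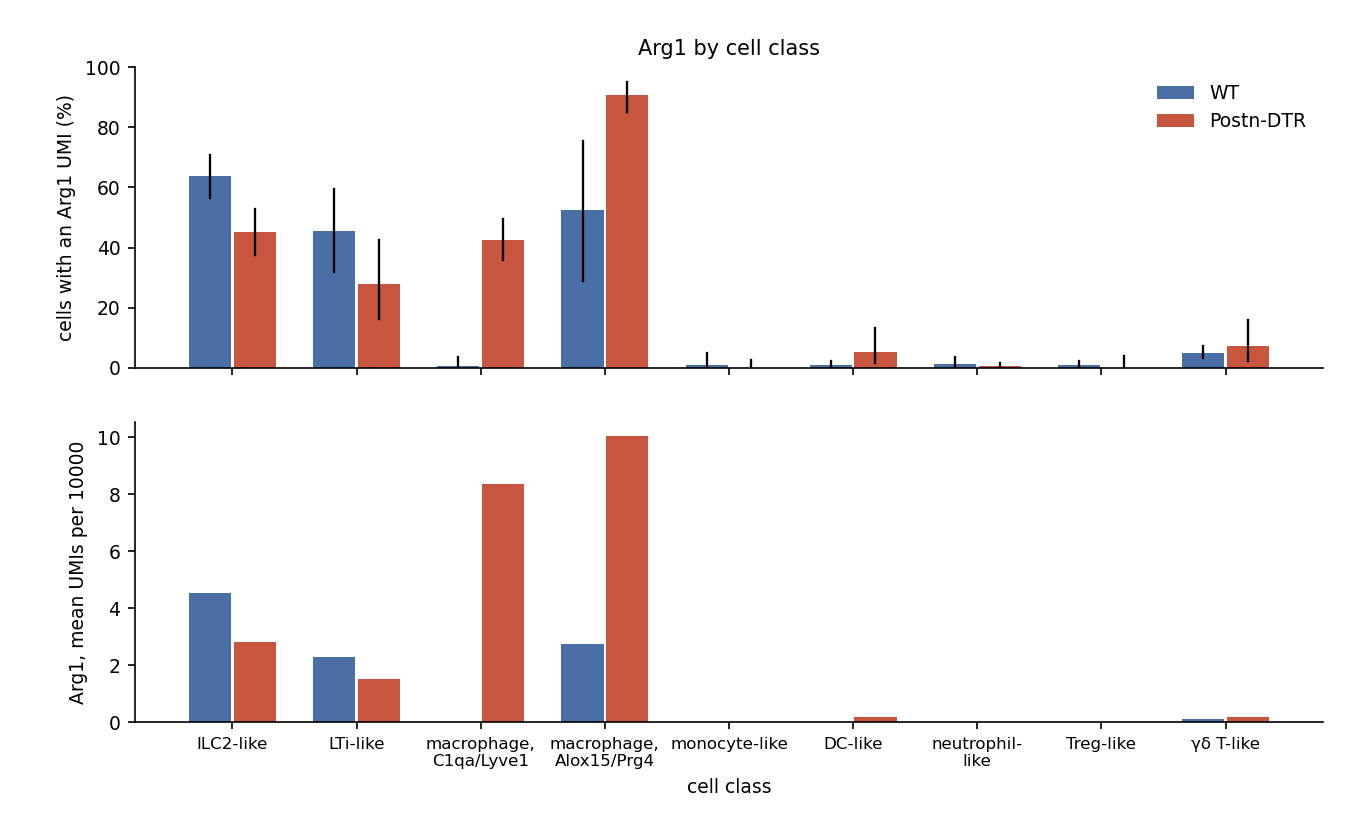
*Arg1* in 9 classes: cells with a UMI in percent with exact 95% intervals (top) and mean UMIs per 10000 (bottom), WT in blue and *Postn*-DTR in red. The *Postn*-DTR bar is the lower in ILC2-like cells (2.81 against 4.54) and the higher in both macrophage clusters (8.34 against 0.00134, and 10.0 against 2.73).

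The order of classes by level was read within each library. For *Areg* it was ILC2-like over Treg-like cells in both, with intervals apart, and all classes of at least 20 cells below them were under 2 per 10000. For *Gata3* it was ILC2-like, Treg-like and other CD4 T-like cells, and LTi-like cells overlapped with the last. For *Rora* LTi-like, ILC2-like and γδ T-like cells led in WT with overlapping neighbours, and in *Postn*-DTR ILC2-like and LTi-like cells lay above γδ T-like cells without overlap. For *Arg1* ILC2-like cells led in WT, above LTi-like cells, and macrophage-like cells led in *Postn*-DTR.

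Genes with the most similar profile were named for the 6 members with at least 200 UMIs, by Pearson's r of log2 levels over 41 class-by-library profiles, which share their libraries and depths. For *Areg* these were *Il1rl1* (0.87), *Ccr8* (0.86) and *Nfkbia* (0.82), and for *Il1rl1* they were *Areg*, *Ccr8* (0.83) and *Ccl1* (0.82). *Calca* was closest to *Rnf128* (0.87), *Il17rb* (0.84) and *4932438H23Rik* (0.82), *Gata3* to *Tnfrsf18* (0.92) and *Icos* (0.91), and *Rora* to *Podnl1* (0.93), *Tnfrsf25* (0.92) and *Tnfsf11* (0.92). *Arg1* had the weakest matches, *Lif* (0.78), *Tmem273* (0.74) and *Tuba8* (0.74).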

How the data were processed

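In the deposited matrices each entry is a natural log, ln(1 + x), where x is a gene's UMI count after the authors scaled every cell to a total of 10000, kept to 3 decimals. The submitters' processing notes name Cell Ranger 6.0.0 and mm10, whereas the study's methods name another Cell Ranger version. The labels give a 5′ kit and the methods a 3′ kit, so which transcript end was read is not settled here. Reads, alignment and counting were the authors' work and were not repeated.

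Values were back-transformed to UMIs per 10000, and dividing by the value of 1 UMI, fitted from the low values of each cell, gave UMIs that were whole within 0.1 for 99.967% of the WT and 99.9108% of the *Postn*-DTR values. Totals were 80152216 and 81011024 UMIs. Cells with 200 to 7500 genes and at most 25% mitochondrial UMIs were kept, as in the study. The 2 libraries were merged without batch correction and clustered in Seurat 5.3.0 (R 4.3.3, sctransform 0.4.2; 3000 variable features, 30 components, resolution 0.8), with the 10 members and 244 receptor segments left out. Before that step 8 of the members were among the variable features. Clusters were named from marker lists without the members. The CD4 T cluster was split by a cluster at resolution 1.6, mast-like and basophil-like cells were taken by UMI gates, and 11 cells that passed both the mast and the basophil gate, which are the whole basophil-like class, counted as basophil-like, and the macrophage-like comparison was added; these choices followed the data. Doublets were scored with Scrublet in scanpy 1.11.5. Its automatic threshold marked 2 WT cells, so a score of 0.25, set after seeing the data, was used in both libraries (1.56% and 1.80%), and doublets were kept.

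The level is the mean over cells of the linear values, and the ratio is log2 after 0.02 was added, for genes reaching 20 UMIs when both libraries are summed. Past 2-fold is the call. The comparison had been planned on counts. Because the files hold natural log values, summed UMIs are an alternative, with Poisson intervals for levels and conditional binomial ones for ratios, both exact. Shares have exact Clopper-Pearson intervals, and beside a 0 stands the limit set by 3 counts. The sum and ratio steps were tested on simulated data. Alternatives were other filters, pseudocounts, scalings, resolutions, depths and cell sets. The members and gene lists were chosen with earlier results of these data known. Named genes were all members, the list genes detected in at least 1% of a class, and the 3 most similar profiles per member, of which 1 gene for *Gata3* is not reported here. Coordinates come from GENCODE vM21 (GRCm38) and promoters from RefSeq (GRCm38.p6), where 9 of the 10 members had an entry.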

Additional observations from a re-analysis of the deposited data

Results flagged for a closer look

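Members that differed in direction were searched for in ILC2-like, Treg-like, other CD4 T-like, γδ T-like, NKT-like and macrophage-like cells only. Between these classes *Arg1* and *Rora* differed in direction under the same contrast, with counting intervals from summed UMIs on opposite sides of no difference. The log2 ratio of *Arg1* was -0.69 in ILC2-like cells, 0.71 in γδ T-like cells and 4.42 in macrophage-like cells. That of *Rora* was 0.70 in ILC2-like cells and -0.56 in other CD4 T-like cells. The γδ T-like value of *Arg1* came from 32 and 11 UMIs and was 0.07 without the top cell of each library. With 1 library per group the difference between classes was not tested.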

How the results depend on the processing

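The number of members past 2-fold was 2 in ILC2-like cells, 1 each in Treg-like, other CD4 T-like, NKT-like and macrophage-like cells, and 0 in γδ T-like cells. Of all genes tested, 4.08% were higher and 4.59% lower in ILC2-like cells, and 3.45% and 5.95% in Treg-like cells. The shares were 4.61% and 7.51% in other CD4 T-like, and 2.9% and 4.48% in NKT-like cells. They were 6.95% and 8.33% in macrophage-like, and 3.22% and 9.33% in γδ T-like cells. No such share was computed for the alternatives, so their counts have no background. A minimum of 50 UMIs gave 1 in ILC2-like cells (*Calca*) and 0 in Treg-like, other CD4 T-like and NKT-like cells. No minimum gave 3 in Treg-like, 2 in other CD4 T-like and 3 in γδ T-like cells. In other CD4 T-like cells 0.1 added to the means, resolution 1.6 and leaving out the top cell of each library each gave 0. In γδ T-like cells summed UMIs, summed UMIs centred on the median gene and totals without receptor, mitochondrial and ribosomal genes each gave 1 (*Arg1*). Chosen after seeing the data, T-like cells with a *Foxp3* UMI gave 0 and the *Alox15* and *Prg4* macrophage cluster alone gave 2 (*Arg1* and *Areg*; all 21 WT UMIs of *Areg* lay in 1 cell, and without the top cells its ratio turned from -1.34 to 3.78). The macrophage-like comparison was itself added after seeing the data. The ratio of the *Postn*-DTR to the WT share of leukocytes was 1.39 for ILC2-like and 0.374 for Treg-like cells, and 2.62 and 0.703 when plasma-like (with cycling) and neutrophil-like cells were left out. The cause of these moves was not tested.

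*Calca* stayed past 2-fold in ILC2-like cells under every alternative run, and *Il4* under all but the 50 UMI minimum, which it does not reach. *Il5* passed 2-fold on summed UMIs (1.31), also centred (1.35) or with reduced totals (1.26), and with doublets removed (1.06). In all 119 alternatives were run, of which 82 lay within the spread set for them and 37 moved. For members past 2-fold this went by their number, not by which they were or their direction. The 82 include the Treg-like setting without the top cells, where *Calca* turned from 1.73 to -1.15. They also include the ILC2-like setting on summed UMIs, where *Il5* made the number 3. With 1 library per group, leaving out a replicate was not possible. No paired analysis was possible because the groups share 1 replicate number only. Depth limits *Il5*, *Il13*, *Il4* and *Il33*, whose UMIs came from 18 to 110 cells over both libraries.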

Other observations

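Outside the classes described above, cycling T-like cells (91 WT and 28 *Postn*-DTR) held *Areg* at 1.84 and 0.503 per 10000, a ratio of -1.83. *Gata3* was 1.28 and 0.488 (-1.36) and *Il1rl1* 0.187 and 0.0614 (-1.35, from 28 and 3 UMIs). These 3 of 5 members with a ratio were past 2-fold lower. *Rora* was 1.61 and 1.79 per 10000, and *Calca* had 2 and 4 UMIs. *Arg1* was 0.734 and 0.524 per 10000 there (133 and 24 UMIs). NK-like cells held *Rora* at 0.432 and 1.01 per 10000 (62 and 71 UMIs, a ratio of 1.19). Their *Areg* level was 0.186 and 0.424 (1.11), from 5 and 4 cells. These 2 of 4 members with a ratio were past 2-fold higher. The share of all genes past 2-fold was not computed for cycling T-like or NK-like cells, so these counts have no background. In dendritic-cell-like cells *Arg1* had 8 and 13 UMIs, or 0.0103 and 0.175 per 10000, and *Il1rl1* was 0.163 and 0.0949 per 10000 (72 and 3 UMIs in 438 and 74 cells). A single WT cycling T-like cell held 9 UMIs of *Il5* and 7 of *Il13*.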
